A study of Mus musculus with 18 samples.

Results

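The mitosis and spindle checkpoint genes described here are 36 named genes for mitotic kinases, cyclins, kinetochore proteins, spindle motors and checkpoint proteins, all of which were present among the 24062 genes of the count table. They were found in the table by gene symbol, and the list was drawn up with earlier results of these data known. Each of the 36 passed the filter on low counts that left 14271 genes for testing. RNA was sequenced from intestinal tumours of male C57BL/6 mice that all carried ApcMin/+, a truncated copy of the Wnt pathway inhibitor Apc that gives intestinal adenomas. The genotypes were ApcMin/+/Macrod2-/- (hom, 6 tumours of the large intestine), ApcMin/+/Macrod2-/+ (het, 5 of the large intestine) and ApcMin/+/Macrod2+/+ (wt, 6 of the large intestine), with 1 tumour from each numbered mouse. A lone het tumour, het 4, came from the small intestine and entered no comparison. The controls therefore carried the Apc mutation too, no normal intestine was used here, and the labels give neither the age of the mice nor the deleted part of Macrod2.

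Macrod2 encodes an enzyme that removes ADP-ribose from proteins, and the title of the series links its loss to chromosome instability. Chromosomes are shared out in mitosis by a relay of switches. Cyclin B with the kinase Cdk1 starts mitosis, kinetochores tie chromosomes to spindle fibres, and the spindle checkpoint holds back the anaphase-promoting complex and its activator Cdc20 until each kinetochore is attached. Most of these genes are transcribed in G2 and M phase, so in bulk tissue their RNA follows the share of dividing cells, which in the intestine are found in the crypts and in adenomas. Fewer dividing cells and less RNA per dividing cell cannot be told apart in bulk samples.

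Total counts were 13529204 to 20857918 per library, and 16207 to 17154 genes were detected. Macrod2 had 0 to 8 counts in hom tumours, 32 to 61 in large intestinal het tumours and 32 to 75 in wt tumours. The ribosomal RNA precursor Rn45s took 27.0% of the counts of wt 3, against 0.725% or less elsewhere. The epithelial label held in each tumour: 8 epithelial genes (Epcam, Cdh1, keratins, villin and claudins) were detected in every library, with a summed level of 13110 to 15740 CPM (library-scaled counts, with TMM factors) in hom tumours, 12870 to 16000 in het tumours and 10970 to 19020 in wt tumours. No repeat of a library was found, and no batch is named in the labels.

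Promoters are shown for members whose levels moved together between tumours (described below) and for Mad2l2, which did not pass the test of moving with them. Genes of G2 and M phase are known for a promoter element called the cell cycle genes homology region (CHR), bound by the DREAM and MuvB complexes, and for CCAAT boxes, bound by NF-Y. The RefSeq promoter table (build GRCm38.p6, 250 bases before to 50 after a start) held 30 of the 36 genes, each taken at its first listed start. The sequences run 5′ to 3′ along the gene, and capitals mark each TTTGAA (CHR) or CCAAT and their matches on the other strand, TTCAAA and ATTGG.
Mki67, chr7:135716330-135716629, - strand: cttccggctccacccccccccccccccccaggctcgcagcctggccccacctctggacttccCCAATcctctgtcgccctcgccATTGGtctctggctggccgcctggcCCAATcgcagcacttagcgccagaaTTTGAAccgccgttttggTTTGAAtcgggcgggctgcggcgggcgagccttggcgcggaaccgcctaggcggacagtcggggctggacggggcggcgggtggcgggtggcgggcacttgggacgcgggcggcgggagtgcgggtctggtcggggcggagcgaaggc
Cdk1, chr10:69352863-69353162, - strand: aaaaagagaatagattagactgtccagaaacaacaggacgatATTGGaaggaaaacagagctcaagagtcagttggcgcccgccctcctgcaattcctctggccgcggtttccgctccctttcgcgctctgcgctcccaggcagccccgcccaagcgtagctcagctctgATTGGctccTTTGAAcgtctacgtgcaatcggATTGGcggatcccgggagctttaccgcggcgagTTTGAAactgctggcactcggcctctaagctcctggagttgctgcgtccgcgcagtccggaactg
Ccnb2, chr9:70421505-70421804, - strand: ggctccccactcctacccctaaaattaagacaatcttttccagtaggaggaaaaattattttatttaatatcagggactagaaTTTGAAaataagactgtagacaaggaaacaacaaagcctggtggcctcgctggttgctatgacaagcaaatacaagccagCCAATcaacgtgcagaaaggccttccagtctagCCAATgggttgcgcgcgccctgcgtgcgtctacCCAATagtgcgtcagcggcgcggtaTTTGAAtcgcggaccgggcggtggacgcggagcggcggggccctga
Aurka, chr2:172370521-172370820, - strand: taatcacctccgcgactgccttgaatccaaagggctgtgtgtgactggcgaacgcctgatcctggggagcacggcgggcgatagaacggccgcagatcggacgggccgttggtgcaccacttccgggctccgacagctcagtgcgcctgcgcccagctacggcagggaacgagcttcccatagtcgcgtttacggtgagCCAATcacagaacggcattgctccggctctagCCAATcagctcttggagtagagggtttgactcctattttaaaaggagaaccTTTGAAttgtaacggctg
Mad2l2, chr4:148130670-148130969, + strand: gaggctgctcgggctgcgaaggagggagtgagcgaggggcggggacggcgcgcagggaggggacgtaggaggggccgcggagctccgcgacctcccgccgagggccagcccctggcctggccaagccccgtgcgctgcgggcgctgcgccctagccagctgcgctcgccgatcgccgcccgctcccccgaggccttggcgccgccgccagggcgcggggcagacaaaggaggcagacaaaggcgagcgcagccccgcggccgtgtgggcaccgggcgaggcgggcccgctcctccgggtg

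In Aurka the TTTGAA lay at bases 33 to 38 after the start, and in Ccnb2 the nearer of its pair lay at bases 5 to 10. In Cdk1 the nearer TTTGAA lay 15 to 10 bases before the start, and CCAAT boxes lay 80 to 76 and 48 to 44 bases before it on the other strand. Mad2l2, at this start, held neither motif. Of the 30 promoters 21 held TTTGAA (70%), against 18.1% of 27025 genes with 1 promoter each. CCAAT was in 22 (73.3%, against 37.9%), both motifs were in 19 (63.3%, against 7.12%), and 15 held at least 2 CCAAT boxes (50%, against 12.2%). Among 92 promoters of other mitosis genes, from a list described below, 40.2% held TTTGAA, 54.3% CCAAT, 28.3% both and 29.3% at least 2 CCAAT boxes. The promoters of Birc5, Mad1l1, Mad2l1, Nuf2 and Pttg1, at the starts taken, also held neither. Of these Nuf2 (r = 0.966 with Mki67), Birc5 (0.918), Mad2l1 (0.886) and Mad1l1 (0.727) moved with Mki67 between the 17 tumours, and Pttg1 (0.574) did so less closely. In Pttg1, Mad2l2, Aurka and Kif2c the window lay wholly inside the listed span of the gene. The sequence before the 5′ end of that span was not searched. The 2 motifs overlap by 1 base in Cdca8. A match is a string of letters in this window and was not tested as a binding site.

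Per unit of gene length, in the authors' RPKM (reads per kilobase of gene, scaled by library size) averaged over the 17 large intestinal tumours, Top2a, the topoisomerase that untangles chromosomes, was highest at 69.7. The checkpoint proteins Bub3 (61.7) and Mad2l1 (58.5) followed, with Cdk1 (54.6) and its partner cyclin A2, Ccna2 (53.5). The lowest were Espl1 (3.51), the separase that cuts cohesin at anaphase, and the large kinetochore proteins Cenpf (4.59) and Cenpe (5.89). Neighbours in this order were closer than the spread between tumours, since a typical member had a within-genotype SD of 0.497 on the log2 CPM scale, against 0.328 for a typical gene tested. The ratio of the highest to the lowest tumour in CPM was 5.59 for the spindle midzone protein Prc1 and 4.93 for the kinetochore protein Spc25. It was 1.81 for the checkpoint protein Mad1l1 and 1.89 for Bub3, whose levels thus differed least between tumours.

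Most of the 36 genes moved up and down together from tumour to tumour, within each genotype. Mad2l2 was the exception, and Pttg1 followed less closely, as described below. Hom 3 was the lowest of the 17 tumours for 30 of 36 genes, with a median of 1.08 log2 units below the mean of the 17. Wt 5 was the highest for 20 genes, wt 4 for 9 and het 6 for 6. In wt 5 and het 6 each of the 36 genes lay above its median over the 17 tumours, and in wt 4 and het 5 35 did. In hom 6 no gene did, in het 1 and hom 3 only 1 did, and in het 2 only 2 did. Het thus held both high and low tumours, hom 2 (33 genes above) was high for hom, and wt 2 (3 genes above) was low for wt.

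**Figure D1:**
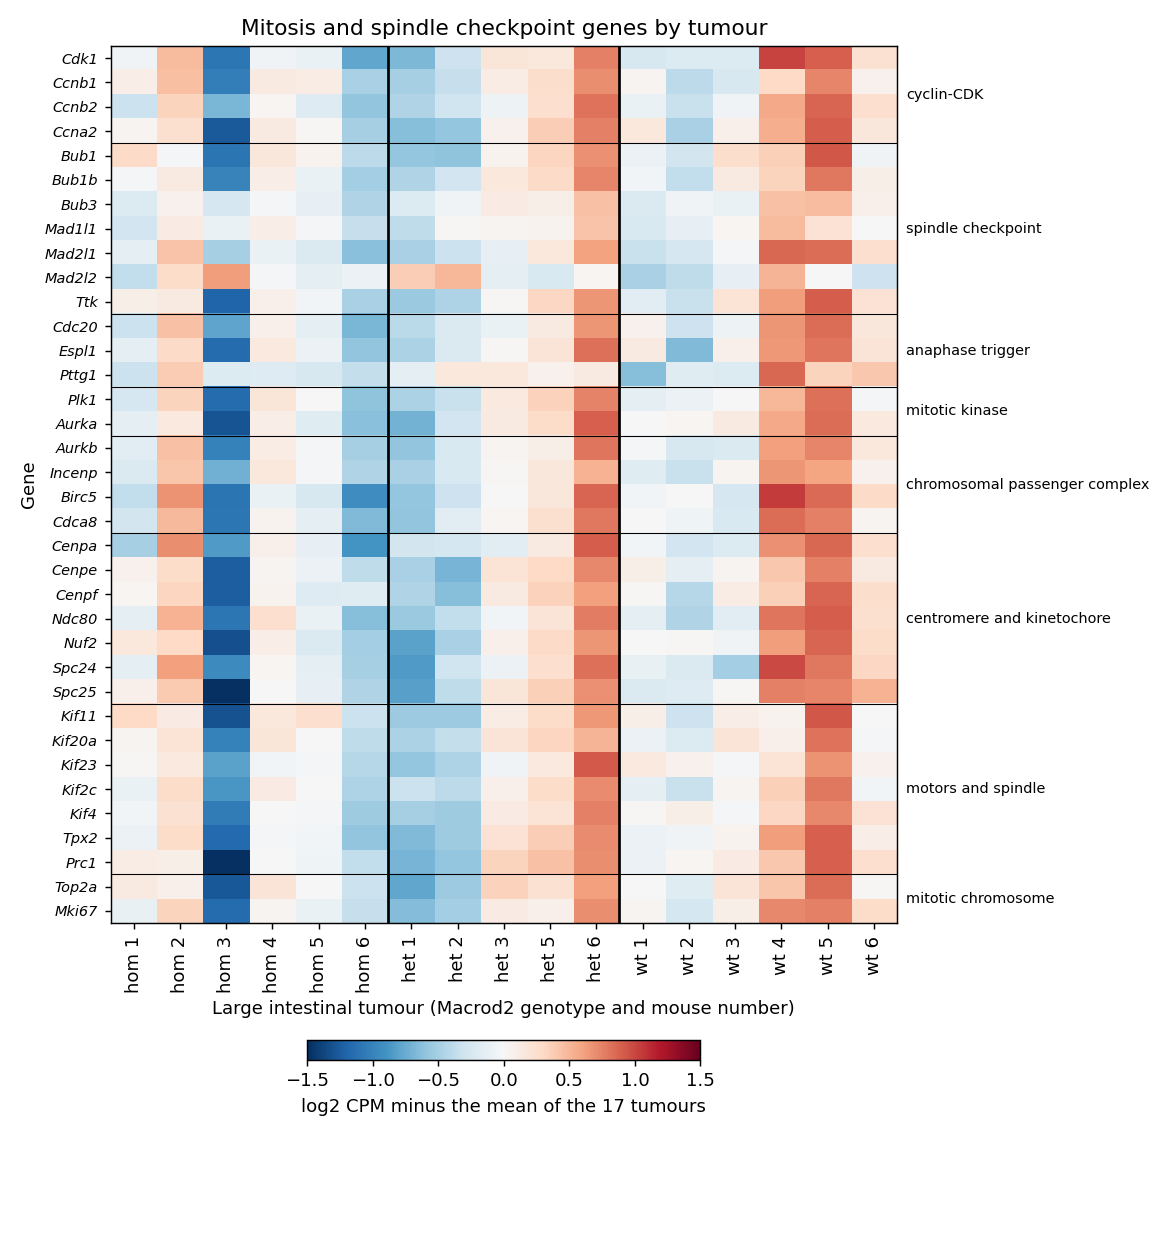
Level of each of the 36 genes (rows, grouped by role) in each of the 17 large intestinal tumours (columns, hom, het, wt), as log2 CPM minus the mean of the 17 tumours. Whole columns are blue (hom 3, hom 6, het 1, het 2) or red (het 6, wt 4, wt 5), and Mad2l2 is the row that departs from them.

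Mki67, which encodes the Ki-67 antigen of dividing cells that coats mitotic chromosomes, gives the pattern in single values. It stood at 231, 313, 112, 256, 232 and 196 CPM in hom 1 to 6. In het 1, 2, 3, 5 and 6 it stood at 158, 175, 271, 262 and 403 CPM, and in wt 1 to 6 at 256, 208, 265, 409.5, 419 and 302 CPM. The groups overlapped: 2 of 6 hom and 2 of 5 het tumours lay below the lowest wt tumour. Across the 17 tumours, log2 CPM of every other gene tested was correlated with Mki67 (14270 relations, 100000 permutations, adjusted over all of them). Among the 35 other members 33 passed with a positive Pearson r, where 15% of all genes did (2134 of 14270), and 34 passed by Spearman's rho. Their median r was 0.937 and their median rho 0.914, and for all genes tested the median r was -0.0272. Nuf2 had r = 0.966 and Aurkb r = 0.963. Without hom 3 and wt 5, the tumours farthest from the median of Mki67, the median r of the members was 0.899 over 15 tumours, and with genotype means subtracted it was 0.940. Genes share libraries and scaling, so the relations are not independent.

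**Figure D2:**
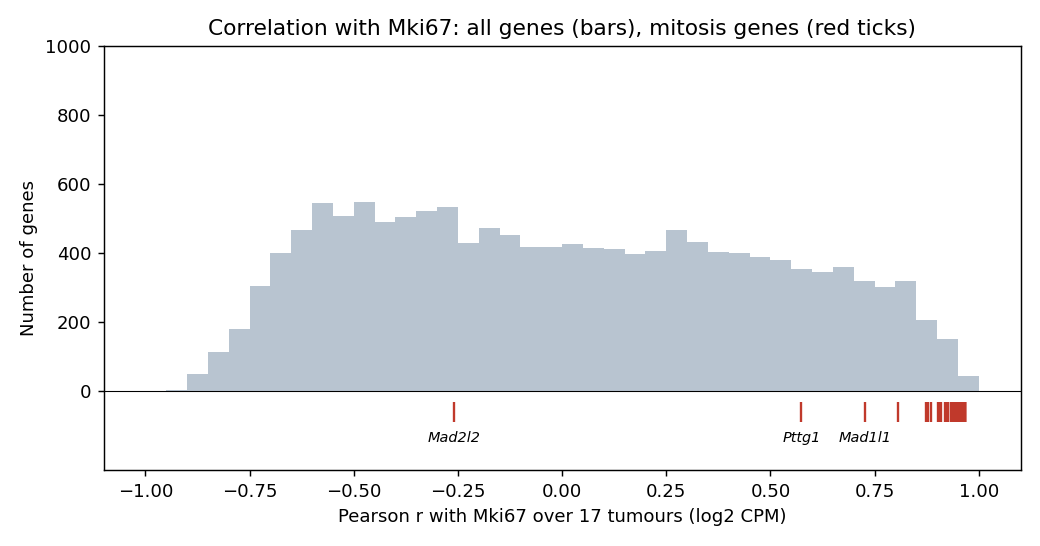
Pearson r with Mki67 over the 17 large intestinal tumours: bars count the genes tested in bins of r, and red ticks mark the 35 other members. The other ticks lie above 0.87, with Bub3 at 0.807, Mad1l1 at 0.727, Pttg1 at 0.574 and Mad2l2 at -0.259.

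Of the members 2, Mad2l2 and Pttg1, did not pass by Pearson r, and Mad2l2 did not pass by Spearman's rho either. Mad2l2, also known as Rev7, is a HORMA domain protein that acts in translesion synthesis and DNA end protection as well as on the anaphase-promoting complex. It ranged over 19.4, 24.0 and 38.7 CPM (lowest, median, highest) in hom tumours, 32.2, 35.3, 22.7, 21.3 and 25.6 CPM in het 1, 2, 3, 5 and 6, and 17.9, 21.6 and 35.5 CPM in wt tumours. Its highest tumour was hom 3, the lowest for most members, and its r with Mki67 was -0.259 (permutation p adjusted over all genes 0.456, n = 17), and 0.0225 without hom 3 and wt 5. Pttg1 encodes securin, the inhibitor of separase that is destroyed at anaphase. Its r of 0.574 missed the threshold after adjustment (permutation adjusted p = 0.0581, n = 17). Its Spearman's rho of 0.642 passed (permutation adjusted p = 0.0346, n = 17). It was lowest in wt 1 at 20.1 CPM and highest in wt 4 at 56.7 CPM.

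Tumours without Macrod2 (hom) were set against wt tumours to see whether the mitotic genes differed in level. Of the 36 genes 35 had a lower estimate in hom tumours, where 54.3% of all genes tested did, and Mad2l2 was the exception. Most members moved together between tumours (median r of 0.937 with Mki67), so the 35 are not separate observations. A few high or low tumours can set the direction of most of them. The same limit holds for the counts of lower estimates in the other comparisons and gene lists below. The median log2 fold change was -0.43 for the members and -0.03 for all genes. No member passed (edgeR's quasi-likelihood test, Benjamini-Hochberg over 14271 genes), where 1 gene, 0.00701% of those tested, did. At an unadjusted p under 0.05, 2 members were lower and 0 higher, shares of 5.56% and 0%, where 10.6% of all genes were lower and 5.35% higher. The lower pair was Aurka and Bub3. DESeq2 and limma-voom called 0 members too, with 3 and 4 below that unadjusted threshold, where 2424 and 2253 of 14271 genes were in either direction. The count of 2 depended on single tumours, and so did the count over all genes, 2277 of 14271 in either direction. Without hom 2 there were 14 members and 2909 of 14270 genes, and without wt 2 there were 9 and 2199 of 14272. Without wt 1 there were 7 and 2613 of 14276, without het 6 5 and 2374 of 14419, and without wt 3 3 and 2914 of 14285. The count was 1 without het 2, het 5 or wt 6 (2005, 1952 and 1809 genes). It was 0 without hom 1, hom 3, hom 5, hom 6, wt 4 or wt 5, with 1341 (without wt 4) to 1892 genes (without hom 1). For no member did the hom and wt tumours separate without overlap, as 0.315% of all genes did on the lower side and 0.364% on the higher. The median of -0.43 was -0.28 without wt 5, -0.31 without hom 3 and -0.20 without both, a pair chosen after seeing the data. Without wt 1 and wt 2 together, a planned setting, it was -0.58. In that setting 14 members had an unadjusted p under 0.05, beside 3535 of 14392 genes, and no member passed. Of 5 mast cell markers (Mcpt1, Mcpt2, Cpa3, Kit, Ms4a2) 4 were lower in hom at an unadjusted p under 0.05, where 10.6% of all genes were. None passed (Mcpt2 at -3.88, edgeR adjusted p = 0.258). Their summed level was 45.7 to 226 CPM in hom tumours, 54.2 to 1529 in het tumours and 37.5 to 7618 in wt tumours, the top value being that of wt 2, and none of the 5 was at 0 in any tumour. None of the 5 passed in correlation with Mki67. Their part in the result was not tested.

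By role, the estimates were as follows. Among the cyclins and their kinase, Ccnb2, cyclin B2, had 40.1, 53.7 and 80.9 CPM (lowest, median, highest) in hom tumours, 47.0, 52.3, 60.9, 76.3 and 113 CPM in het 1, 2, 3, 5 and 6, and 51.1, 69.1 and 118 CPM in wt tumours. The 3 groups overlapped, with 2 hom tumours below all wt tumours. Its log2 fold change in hom against wt was -0.48 (SE 0.239, edgeR adjusted p = 0.329), and those of Cdk1, Ccna2 and Ccnb1 were -0.55, -0.45 and -0.20.

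Of the 7 spindle checkpoint genes 6 had a lower estimate in hom tumours. Bub3, which brings Bub1 and BubR1 to the kinetochore, had 91.0, 111 and 130.3 CPM in hom tumours, 108, 121, 136, 133 and 169.8 CPM in het tumours in mouse order, and 108, 126 and 172 CPM in wt tumours. The 3 wt tumours above every hom tumour were wt 4, wt 5 and wt 6. Its fold change was the most precise of the named members (log2 -0.32, SE 0.135, unadjusted p = 0.0322, edgeR adjusted p = 0.289). Mad2l1, the Mad2 protein that captures Cdc20, had 62.1, 84.9 and 129.5 CPM in hom tumours, 68.6, 76.7, 87.8, 107 and 146 CPM in het tumours, and 76.1, 104 and 175 CPM in wt tumours. The high wt values were those of wt 4 and wt 5, and its log2 fold change was -0.48 (SE 0.240, edgeR adjusted p = 0.330). The kinases Ttk (-0.50), Bub1 (-0.37) and Bub1b (-0.41), which encodes BubR1, and Mad1l1 (-0.19), the kinetochore anchor of Mad2, had lower estimates. Mad2l2 was at 0.14 (SE 0.189, edgeR adjusted p = 0.706).

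Genes that trigger anaphase had lower estimates as well. Cdc20 had 37.2, 54.9 and 87.6 CPM in hom tumours, 48.6, 55.5, 59.9, 70.5 and 102 CPM in het tumours, and 52.1, 69.7 and 116 CPM in wt tumours. 3 hom tumours lay below the lowest wt tumour and 2 wt tumours above the highest hom tumour. Its log2 fold change was -0.48 (SE 0.238, edgeR adjusted p = 0.326), beside -0.47 for Espl1 and -0.34 for Pttg1.

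Aurka encodes Aurora A, the kinase of spindle poles. It had 17.6, 38.2 and 47.5 CPM in hom tumours, 26.3, 35.2, 47.0, 52.1 and 79.9 CPM in het tumours, and 42.9, 47.2 and 76.5 CPM in wt tumours. Here 4 of 6 hom tumours lay below the lowest wt tumour, the most for any member, and het 6 was the highest tumour of all. The log2 fold change of -0.60 (SE 0.262, unadjusted p = 0.0343) had an edgeR adjusted p of 0.293. Plk1, Polo-like kinase 1, was at -0.42.

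The chromosomal passenger complex corrects faulty attachments at the centromere. Its member Birc5, survivin, had 32.3, 56.0 and 109.9 CPM in hom tumours, 46.1, 55.7, 69.2, 77.6 and 126 CPM in het tumours, and 57.7, 76.8 and 142 CPM in wt tumours. Hom 2 was high and hom 3 and hom 6 low. With -0.65 it had the lowest log2 fold change of the 36 (SE 0.309, edgeR adjusted p = 0.316), and its partners Cdca8 (borealin), Aurkb (Aurora B) and Incenp were at -0.50, -0.37 and -0.30.

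All 7 kinetochore and centromere genes had lower estimates, from -0.52 to -0.41. Nuf2, a subunit of the Ndc80 complex that binds microtubules, had 11.9, 28.6 and 36.3 CPM in hom tumours, 16.9, 21.1, 31.2, 35.9 and 46.7 CPM in het tumours, and 28.6, 32.8 and 54.2 CPM in wt tumours. Its log2 fold change was -0.52 (SE 0.274, edgeR adjusted p = 0.354), with Spc25 at -0.51 and Ndc80 at -0.42 in the same complex. Cenpa, the histone variant of centromeres, was at -0.46.

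The 7 motors and spindle proteins ranged from -0.54 for Prc1 to -0.26 for Kif11, the motor that separates spindle poles. Tpx2, which activates Aurora A on the spindle, had 37.8, 80.9 and 103 CPM in hom tumours, 53.6, 58.3, 98.0, 109 and 138 CPM in het tumours, and 79.4, 89.1 and 157 CPM in wt tumours. Its log2 fold change was -0.53 (SE 0.264, edgeR adjusted p = 0.330). Top2a and Mki67, of the mitotic chromosome, were at -0.40 and -0.50.

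**Figure D3:**
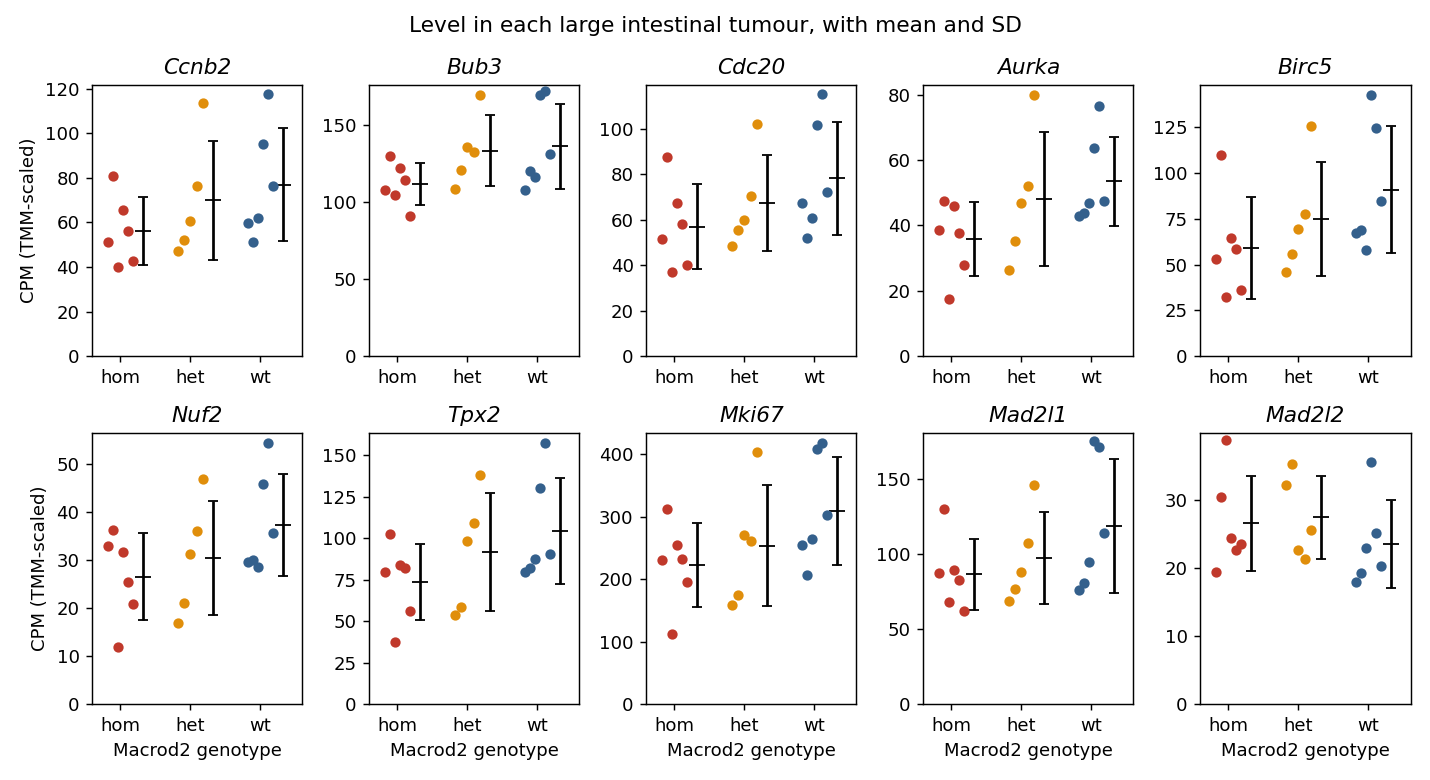
CPM of 10 members in each large intestinal tumour (points) by genotype (hom, het, wt), with the mean and SD as black bars. The genotypes overlap in every panel, and het 6, wt 4 and wt 5 hold the high values in 9 of the 10, Mad2l2 being the other.

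Loss of 1 copy was compared with wt because the series title names haploinsufficiency. Of the 36 genes 35 had a lower estimate in het tumours, where 56.8% of all genes did, and Mad2l2 was at 0.20. The median log2 fold change was -0.18, and -0.03 for all genes. No gene passed with edgeR (0% of 14271), and 0 members had an unadjusted p under 0.05 with edgeR, DESeq2 or limma-voom, where 1.67% of genes were lower and 1.18% higher by edgeR at that threshold. The lowest estimates were those of Nuf2 (-0.32), Mki67 (-0.31, SE 0.266) and Mad2l1 (-0.31, SE 0.252), each with an edgeR adjusted p of 0.999. The 95% interval of the difference in Aurka, -0.717 to 0.357 on the log2 scale, reached both sides of 0. The median was -0.03 without wt 5, -0.04 without het 1, -0.07 without het 2, -0.10 without wt 4 and -0.38 without het 6. No member separated het from wt tumours without overlap, as 0.042% of all genes did on the lower side and 0.0981% on the higher.

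Hom tumours were also set against het tumours. All 36 genes had a lower estimate in hom tumours, where 51.8% of all genes did, with a median log2 fold change of -0.24 (-0.01 for all genes). No member passed with edgeR, where 0.00701% of genes did, and 0 members had an unadjusted p under 0.05 with edgeR, DESeq2 or limma-voom, where 1.03% of genes were lower and 0.974% higher by edgeR. Aurka had the lowest estimate (-0.42, SE 0.273, edgeR adjusted p = 1), followed by Prc1 (-0.35) and Birc5 (-0.34). Without het 6, 25 of 36 were lower and the median was -0.05, and without hom 3 the median was -0.13. No member separated the groups without overlap, as 0.119% of all genes did on the lower side and 0.0701% on the higher. The comparisons share tumours in pairs, so their directions are not independent of each other.

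**Figure D4:**
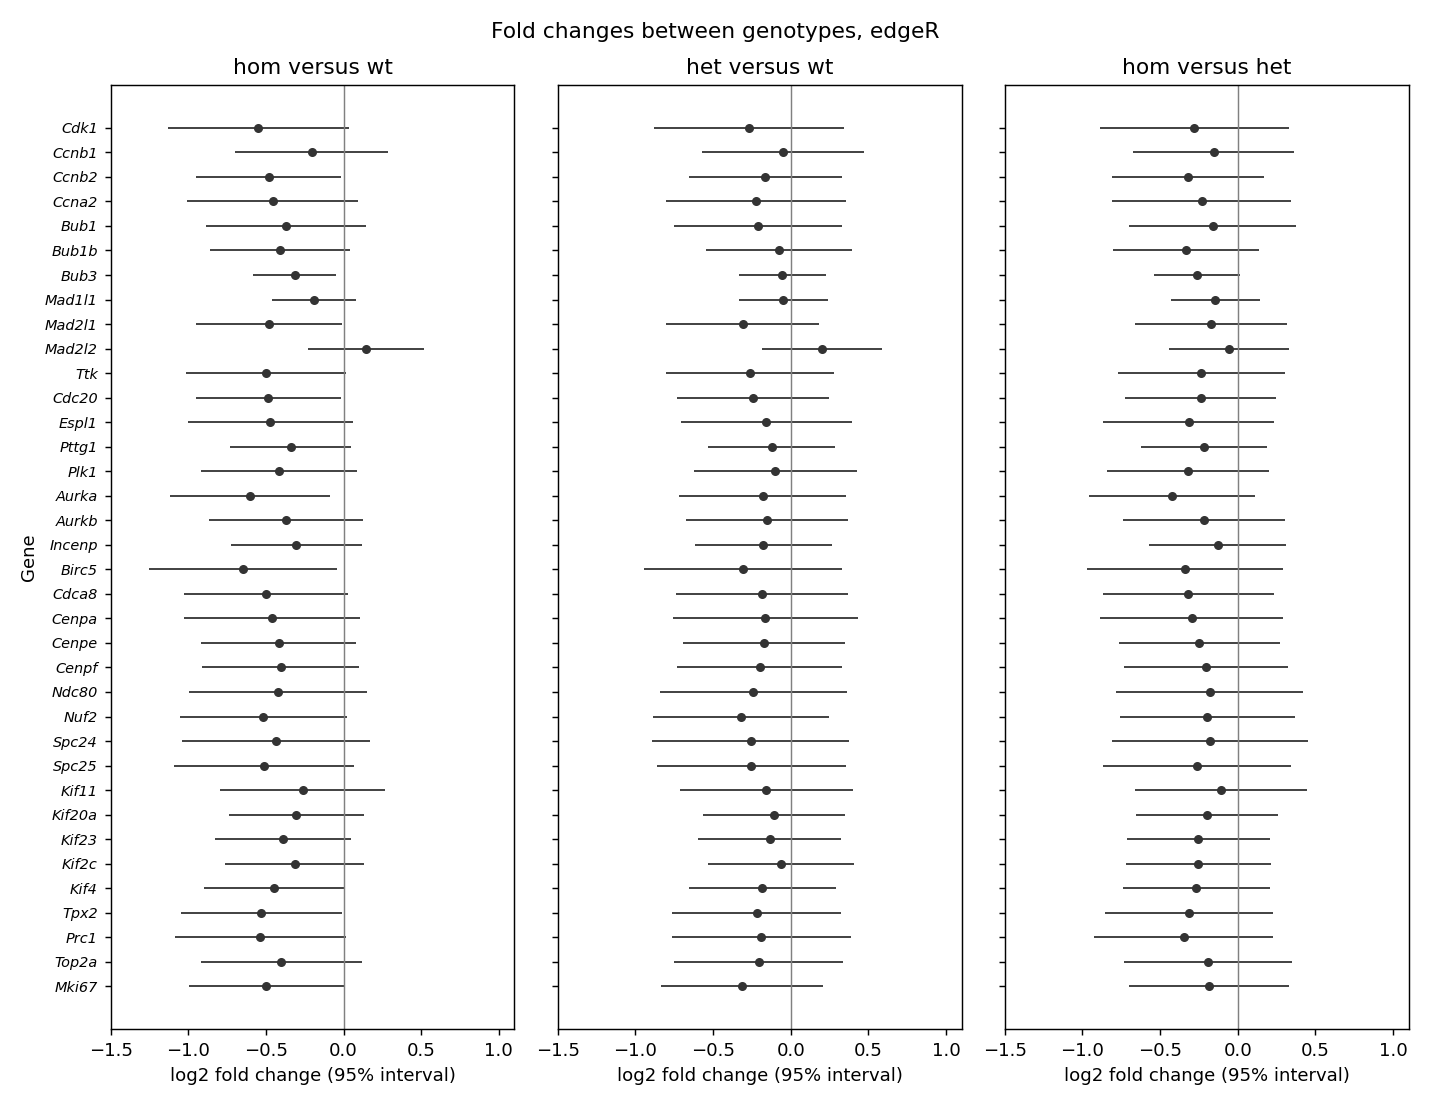
Log2 fold change with its 95% interval for each of the 36 genes (rows, by role) in hom against wt, het against wt and hom against het tumours (edgeR). Nearly all points lie left of 0, and most intervals cross it.

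A list of 118 other mitosis genes, of kinetochores, spindle and cytokinesis, the anaphase-promoting complex, cohesin and condensin, and mitotic entry, gave no gene past the threshold in any comparison. In hom against wt 102 of 118 were estimated lower, at a median of -0.25 on the log2 scale, and 10 were lower and 0 higher at an unadjusted p under 0.05, shares of 8.47% and 0% where 10.6% of all genes were lower and 5.35% higher. Those with the smallest p were Haus8, of the augmin complex that branches spindle microtubules (-0.82, SE 0.220, edgeR adjusted p = 0.258), the kinetochore protein gene Mis12 (-0.38) and Cdc23 (-0.31), a subunit of the anaphase-promoting complex. On the higher side stood Lin54 (0.36), the DNA-binding subunit of MuvB, the cohesin subunit gene Stag2 (0.25) and the motor gene Kif2a (0.10). Of 17 genes of the anaphase-promoting complex and its partners 6 were among the 10 lower ones, where 10.6% of all genes were lower at that threshold. They included those for the ubiquitin-conjugating enzymes Ube2s (-0.61) and Ube2c (-0.72), 2 genes named after their values were seen. The class was picked out of the list in the same way.

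In het against wt 95 of the 118 had a lower estimate (median -0.11), with Anapc13 (-0.34), Anapc10 (-0.24) and Haus8 (-0.34) on the lower side and Cenpb (0.15), Numa1 (0.16) and Fzr1 (0.06) on the higher. In hom against het 100 had a lower estimate (median -0.11), with Haus8 (-0.48), Cdc23 (-0.21) and Cdc25a (-0.15) lower and Kif2a (0.18), Lin54 (0.27) and Stag2 (0.20) higher. Correlation with Mki67 passed with a positive r for 90 of the 118, where 15% of all genes did. By class these were 27 of 30 kinetochore genes, 25 of 29 of spindle and cytokinesis, 17 of 23 of mitotic entry, 12 of 19 of cohesin and condensin, and 9 of 17 of the anaphase-promoting complex.

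Other lists moved with the mitosis genes between tumours. All 21 genes of S phase, such as the Mcm helicase genes and Pcna, passed with a positive r with Mki67, where 15% of all genes did. Their median r was 0.902. In hom against wt all 21 were estimated lower (median log2 fold change -0.41), where 54.3% of all genes were. At an unadjusted p under 0.05, 4 of the 21 were lower, where 10.6% of all genes were, and none passed with edgeR. Of 6 tested markers of surface colonocytes 3 passed with a negative r, and 3 of 5 of small intestinal enterocytes and 3 of 6 of macrophages did too, where 11.5% of all genes passed on that side. Guca2a, which encodes guanylin of surface cells, had r = -0.733 (permutation adjusted p = 0.00763, n = 17), Sis, sucrase-isomaltase, r = -0.679, and C1qc, a complement gene of macrophages, r = -0.661. Of 5 smooth muscle markers 3 passed with a positive r, where 15% of all genes did. None of 8 epithelial markers passed. The summed surface colonocyte level was 933 to 2655 CPM in hom tumours, 951 to 2497 in het tumours and 439 to 3361 in wt tumours. The 2 lowest were wt 5 and wt 4, at 439 and 585 CPM, the tumours with the most mitosis RNA among wt. For the 5 small intestinal enterocyte markers the summed level was 1659 to 12920 CPM in hom, 1136 to 7652 in het and 56.8 to 28560 in wt tumours. In this sum wt 2 (28560 CPM), wt 1 (19370) and hom 6 (12920) lay above the small intestinal het 4 (11890). Wt 4, wt 5 and wt 6 had 56.8, 395 and 652 CPM. Wt 2 and wt 1 also had the lowest summed level of the 36 genes among wt, at 2211 and 2450 CPM. Single enterocyte markers differed from the sum, of which Apoa4 alone gave 8180 CPM in het 4. Lct was 821 CPM in het 4, and at most 43.6 in hom, 45.6 in large intestinal het and 1664 in wt tumours. Fabp6 was 2.30 CPM in het 4, against 352 to 1165 in hom, 86.8 to 1664 in large intestinal het and 1.73 to 654 in wt tumours. The summed level of macrophage markers was 47.2 to 77.7 CPM in hom, 25.6 to 72.2 in het and 27.6 to 75.5 in wt tumours. The part of cell composition in the differences between genotypes was not tested.

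**Figure D5:**
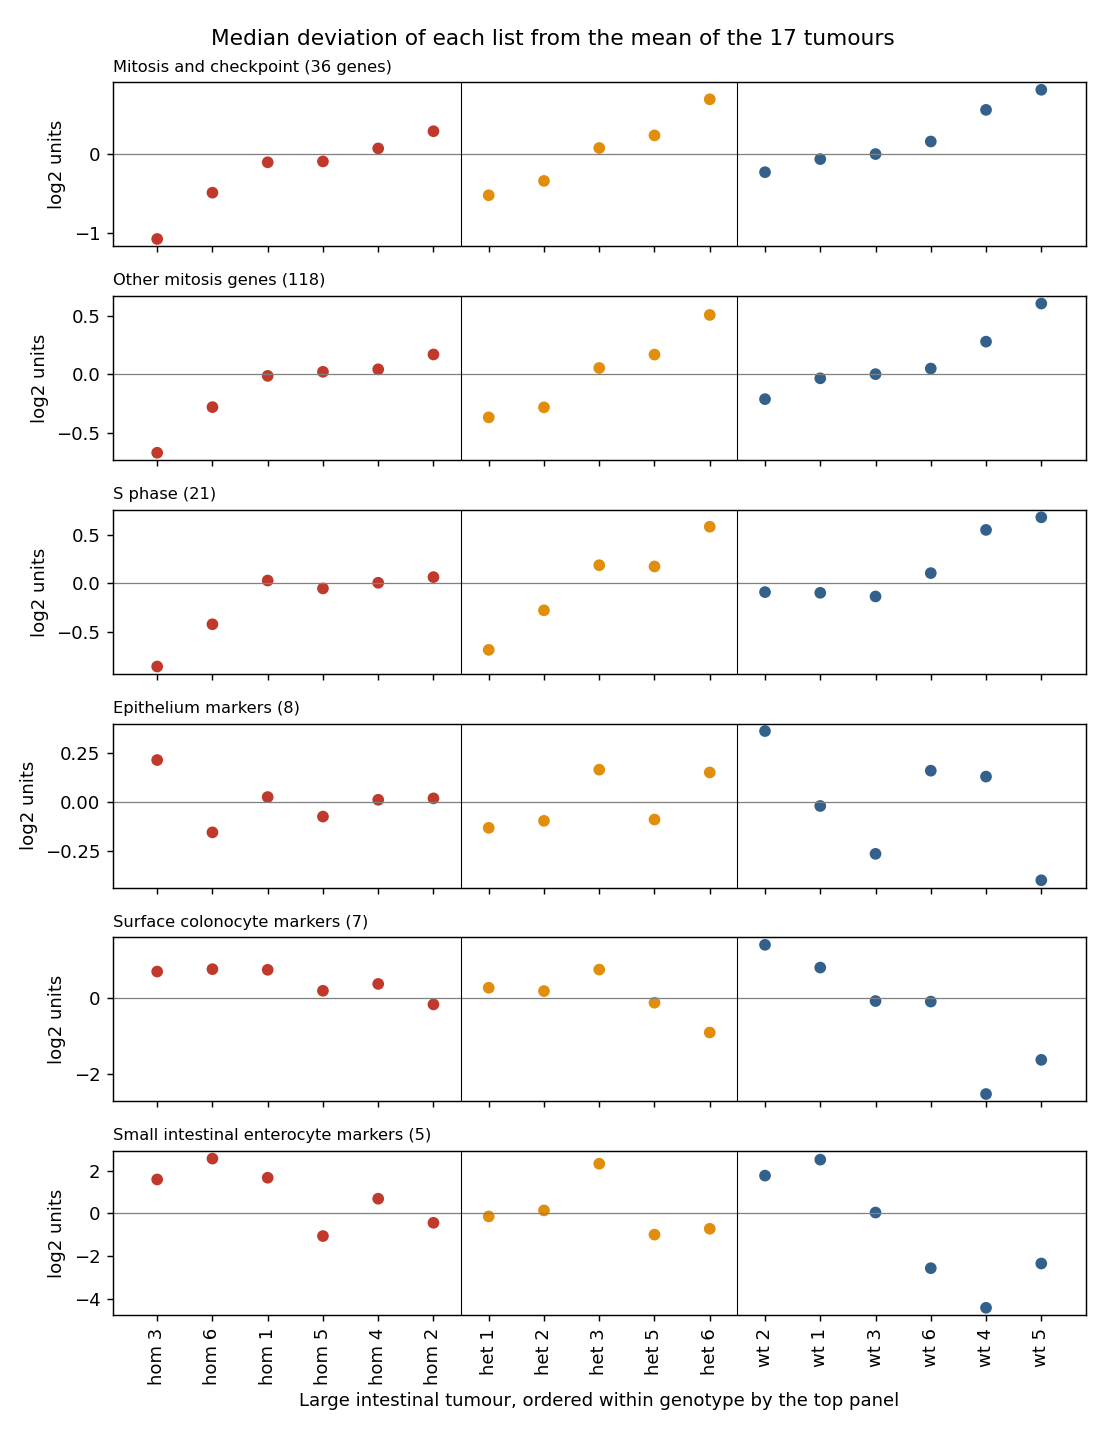
Median deviation of each gene list from the mean of the 17 tumours (log2 CPM), 1 point for each large intestinal tumour, with tumours ordered within genotype (hom, het, wt) by the 36 mitosis and checkpoint genes. Other mitosis genes follow the order of the top panel in each genotype, S phase genes are lowest in hom 3 and highest in wt 5, and surface colonocyte markers are lowest in wt 4 and wt 5.

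The small intestinal tumour het 4 had mitosis levels within the range of the large intestinal ones. Its Mki67 was 329 CPM, its Aurka 55.9 CPM, its Cdc20 66.5 CPM and its Mad2l2 22.6 CPM. The median deviation of its 36 genes from the large intestinal mean was 0.27 on the log2 scale.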

How the data were processed

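Per the submitters' processing notes, the authors worked with mm10 and ran Trimmomatic, TopHat and, from Subread 1.4.5-p1, featureCounts. Annotation, options and strand setting were not stated, so overlapping or antisense genes may share reads. The labels name both a TruSeq Stranded Total RNA kit and polyA RNA. The deposited values are raw read counts per gene and the authors' RPKM, which are labelled as TMM-scaled. Every column was matched to a tumour by name.

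Counts of the 17 large intestinal tumours were filtered with filterByExpr, scaled by TMM and fitted with edgeR 4.0.16 (R 4.3.3, quasi-likelihood, robust), 1 term per genotype, with Benjamini-Hochberg adjustment over 14271 genes and a threshold of 0.05. DESeq2 1.42.0, limma 3.58.1 and other settings were alternatives. Intervals of 95% use the SE with a normal quantile and are slightly narrower than the test implies. CPM was scaled over all 18 libraries, and log2 CPM used a prior count of 2. Correlations were tested two-sided by permutation with SciPy 1.17.1 and numpy 2.4.6. The scripts were tested on simulated data. Since titles give each tumour a mouse number, tumours count as animals, and p-values measure the spread between them. The lowest chi-square per degree of freedom between 2 libraries was 20.3.

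The members, lists and role classes were chosen with earlier results of these data known. Tumour values are given for the member of each role class with the smallest p in hom against wt and for Mki67, Aurka, Bub3, Mad2l1 and Mad2l2; of the other mitosis genes up to 3 per direction are named by smallest p. Further members are named by role.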

Additional observations from a re-analysis of the deposited data

Results flagged for a closer look

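In 5 of 108 groups (36 genes in 3 genotypes) 1 tumour stood far from the others of its genotype, and chance flags about 1 in 20 groups. 3 of the 5 were spindle motors in wt 5: Kif11 at 139.5 CPM, with the next wt tumour at 78.3 CPM, Kif20a at 120.7 CPM, with the next at 78.8 CPM, and Kif23 at 87.8 CPM, with the next at 63.2 CPM. Wt 4, whose Mki67 of 409.5 CPM was close to the 419 CPM of wt 5, had 75.9 CPM of Kif11 and 72.5 CPM of Kif20a. The centromere histone gene Cenpa stood at 84.0 CPM in het 6, with the next het tumour at 49.0 CPM. The securin gene Pttg1 stood at 40.6 CPM in hom 2, with the next hom tumour at 27.3 CPM. The causes were not tested.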

How the results depend on the processing

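Over 31 alternatives for each comparison no member passed the threshold. The smallest edgeR adjusted p of a member was 0.129, in hom against wt without wt 1 and wt 2 together. In hom against wt 33 to 35 members had a lower estimate, with medians of -0.58 to -0.20, and with each tumour left out in turn 35, with medians of -0.52 to -0.28. With each tumour left out, 24 to 35 members were lower in het against wt (medians -0.38 to -0.03, 24 without wt 5) and 25 to 36 in hom against het (medians -0.35 to -0.05). Over all genes, hom against wt gave 1 call, and 22 with DESeq2, 2 with the replicate block, 0 with a stricter filter and 1 to 2 with each tumour left out. The stricter filter asked for a mean count of 10 in each group. The deleted gene Macrod2, at 0 to 8 counts in hom tumours, did not reach it and so was not tested there. Hom against het gave 1, and 0 with the stricter filter, the replicate block or only the groups compared, while het against wt gave 0 throughout. With the replicate block the members had medians of -0.41, -0.12 and -0.28, none passed, and 31 rather than 35 were lower in het against wt; same-numbered tumours did not deviate together (correlations of -0.452 to 0.325). Estimates that changed sign, none past the threshold, were in het against wt Bub3 (0.0225 without hom 3 and wt 5 together, 0.00461 with the replicate block, and -0.129 to 0.0459 with each tumour left out, above 0 without het 1, wt 4 or wt 5) and Ccnb2 (-0.379 to 0.0183, above 0 without wt 5). In hom against het they were Mad2l2 (-0.186 to 0.0547, above 0 without het 1, hom 1 or het 2) and, above 0 without het 6, Nuf2 (-0.346 to 0.00354), Mki67 (-0.311 to 0.0369) and Mad2l1 (-0.326 to 0.0125). The causes were not tested. With 5 or 6 tumours a group the SE of a member's log2 fold change was typically 0.257 to 0.270, and estimates as low as -0.65 (Birc5 in hom against wt) did not pass, so differences of that size could be missed.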
